A study of Mus musculus with 6 samples.

Results

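Adipokines are proteins that fat cells secrete into the blood or the surrounding tissue, and adipokine receptors are the membrane proteins that read them. The genes described here were chosen by symbol: Adipoq, Lep, Retn, Rbp4, Nampt, Apln and Ccdc3, which encode secreted products, and Adipor1, Adipor2 and Lepr, which encode receptors. All 10 were among the 22609 genes listed in each sample, and 9 of them had enough reads to be tested, the exception being Lepr. RNA was sequenced from primary cultured iWAT (inguinal white adipose tissue) of male C57BL6 mice, for which the labels give an age of 3 weeks. The methods of the study give a somewhat older age for the mice used to isolate such cells. The cells were stromal vascular cells of inguinal fat that were differentiated into adipocytes in culture. The comparison was between 3 samples that received a control vector and 3 samples with miR182 overexpression, named control and miR-182 below, and it asked how the miRNA changes the genes that adipocytes express when cultured alone. The labels name electroporation as the means of delivery, whereas the methods of the study describe a lipid reagent and a synthetic mimic. Nothing in the labels says whether the 3 samples of a group came from separate mice or cultures, so p-values measure the spread between these samples, which may be technical.

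Adiponectin, the product of Adipoq, is an abundant hormone of differentiated adipocytes that acts through the seven-span receptors AdipoR1 and AdipoR2 and is known for raising insulin sensitivity. Leptin, the product of Lep, reports fat stores to the brain through the leptin receptor. Resistin (Retn) and retinol-binding protein 4 (Rbp4) are linked to insulin resistance in mice, Nampt makes a precursor of NAD inside cells and is also found outside them, apelin (Apln) acts through a G protein–coupled receptor, and Ccdc3 encodes a secreted protein made in fat and in vessels.

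A miRNA lowers mRNAs that pair with its seed, bases 2 to 8, usually in the 3′-UTR. The mature miRNA is shown because the pairing sites were sought with it, and the sites because they were the matches found among the adipokine and receptor genes. The sequence comes from RefSeq on GRCm38.p6 (chr6:30165962-30165986, minus strand) and the sites from GENCODE M21 transcripts on GRCm38, with the seed and the matches in capitals.
miR-182-5p: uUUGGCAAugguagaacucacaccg
Apln 3′-UTR, chrX:48026969-48026976, minus strand: gggggtaattTTGCCAAAaaaataatcc
Nampt 3′-UTR, chr12:32851284-32851290, plus strand: gtaccagtgaTGCCAAAtcccaaaggc
The letters sought on the transcript strand were TTGCCAA and TGCCAAA, which overlap in 6 bases and together form TTGCCAAA. The Apln site is the 8-base form and lies at bases 737 to 744 of a 3′-UTR of 2567 bases. The Nampt site is TGCCAAA alone, at bases 751 to 757 of 2816. The longest 3′-UTRs of the other 8 genes, from 243 bases (Rbp4) to 2695 (Lep), hold neither form. Of 12520 tested genes with an annotated 3′-UTR, 5.2% hold TTGCCAAA, 12.5% TTGCCAA, 14.3% TGCCAAA, and 20.3% at least one of these. A match describes letters only. The methods of the study name a supplier for the miR-182-5p mimic but print no sequence for it. The mature sequence printed under this name in their PCR section differs from the RefSeq entry. The target site they give for a reporter assay lies in the 5′-UTR of Nr1d1, whereas only 3′-UTRs were searched here. It does pair with the RefSeq entry, but with only part of the seed and the bases after it. It holds neither of the forms sought. The sequence of the transfected molecule itself is not given in the sources used here. No sample had a read on the Mir182 gene (0 in each), in libraries selected for poly(A) RNA, which leaves the mature miRNA out, so these counts do not check the overexpression.

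Reads counted on genes came to between 25869810 and 26484794 in the control samples and between 25960631 and 28796712 in the miR-182 samples. Replicates of a group differed by 2.13 to 3.10 in chi-square per degree of freedom, where 1 is sampling noise, except that miR-182 replicate 1 differed from replicates 2 and 3 by 5.01 and 7.19. Levels are given in CPM, the counts of a gene scaled to a common library size by TMM, which corrects for a few genes taking a larger share of one library. A gene counts as called here if edgeR's quasi-likelihood test gave an adjusted p under 0.05 and the groups differed by 1.5-fold or more. Of 13117 genes tested, 7.45% were called, 1.97% higher and 5.48% lower with miR-182, and 46.7% passed the adjusted p alone. Of the 9 adipokine and receptor genes tested, 3 were called: Ccdc3 higher, and Retn and Rbp4 lower. All 9 passed the adjusted p, 4 higher (23.2% of all genes tested were) and 5 lower (23.5% were). In all 9 the samples of the groups did not overlap, which was so for 54.8% of all genes tested, 27.3% higher and 27.5% lower. Their median log2 fold change was -0.21, against -0.004 for all genes tested. The genes were chosen with earlier results of these data known, so these shares are a background and not a test of the set. Levels of mRNA in bulk cultures cannot tell fewer adipocytes from less RNA per adipocyte.

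**Figure D1:**
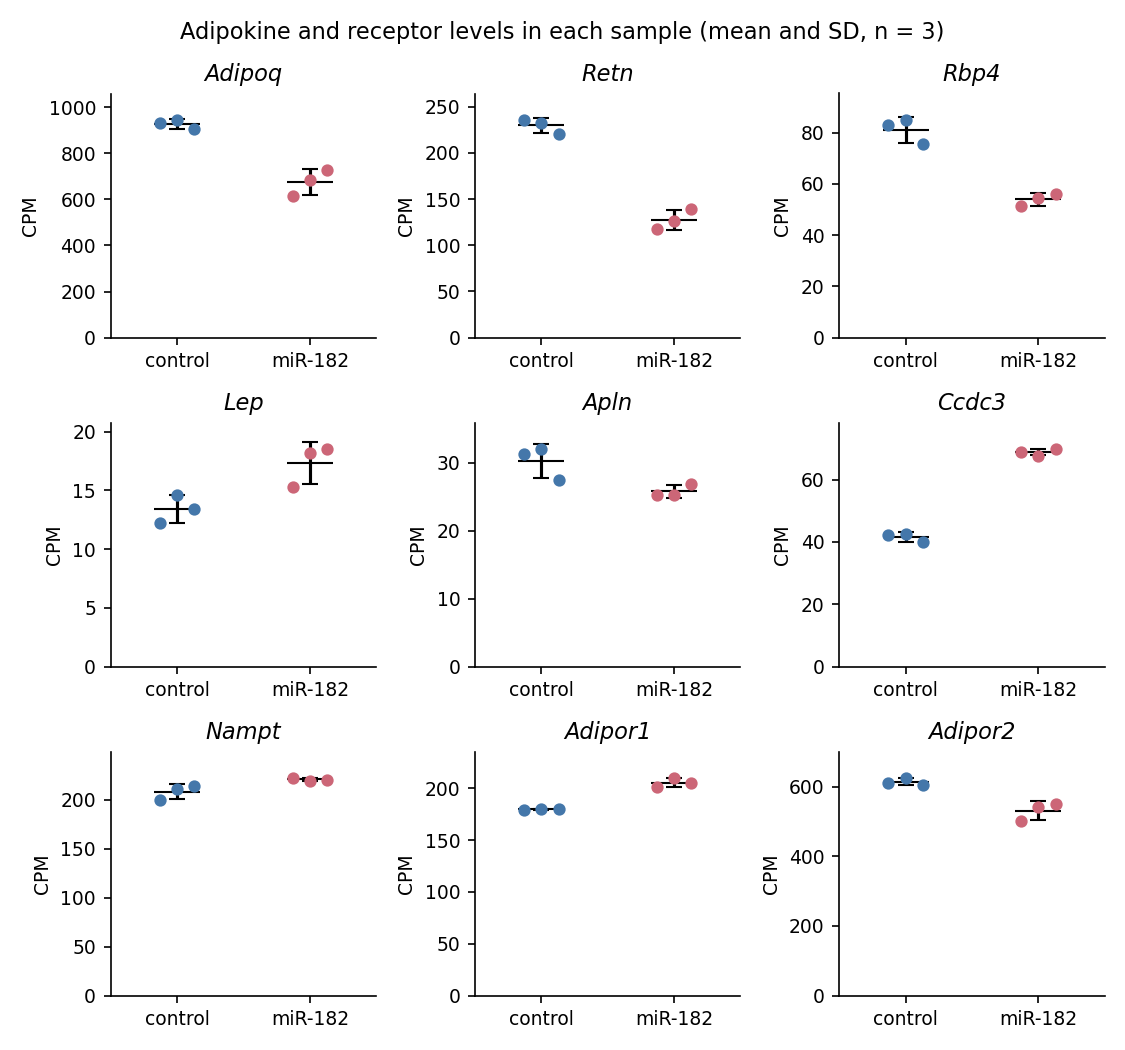
CPM (y axis, from 0) of 9 adipokine and receptor genes in the 3 control (blue) and 3 miR-182 (red) samples, with the mean as a line and the SD as bars. Adipoq, Retn, Rbp4, Apln and Adipor2 lie lower with miR-182, and Lep, Ccdc3, Nampt and Adipor1 lie higher, with no overlap between groups; Lepr, at 0 to 2 reads, is left out.

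Of the 9 genes tested, resistin showed the largest fall. Retn (chr8:3655770-3660110, plus strand, in GENCODE M21 on GRCm38), which encodes a small cysteine-rich hormone of mouse adipocytes, stood at 236, 232 and 221 CPM in control replicates 1 to 3 and at 117, 127 and 139 CPM in miR-182 replicates 1 to 3. Every miR-182 sample was far below every control sample. The mean fell from 230 ± 7.88 to 128 ± 10.7 CPM (SD, n = 3 each, edgeR log2 fold change -0.85, SE 0.048, adjusted p = 6.11e-09). Retn kept its call in each of the 6 fits that left out 1 sample, with log2 fold changes from -0.91 to -0.79.

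Rbp4 (chr19:38116629-38125281, minus strand), which encodes the carrier of retinol in blood, followed. It stood at 83.0, 85.1 and 75.5 CPM in the control samples and at 51.3, 54.7 and 56.0 CPM in the miR-182 samples. The miR-182 samples lay close together and below the lowest control sample. The mean fell from 81.2 ± 5.07 to 54.0 ± 2.40 CPM (SD, n = 3 each, edgeR log2 fold change -0.590, SE 0.049, adjusted p = 2.88e-07). This is just past the 1.5-fold line at 0.585 in size, by less than the standard error. The call was lost without control replicate 1 (-0.573), without control replicate 2 (-0.554), without miR-182 replicate 1 (-0.553) and in DESeq2 (-0.584), while its edgeR adjusted p was at most 9.95e-06 in those 3 fits that left out a sample.

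Adipoq (chr16:23146536-23158028, plus strand) fell without reaching the fold cutoff. It stood at 933, 946 and 906 CPM in the control samples and at 616, 683 and 727 CPM in the miR-182 samples. The lowest control sample was well above the highest miR-182 sample, and the miR-182 samples were the more spread. The mean fell from 928 ± 20.6 to 675 ± 56.0 CPM (SD, n = 3 each, edgeR log2 fold change -0.46, SE 0.047, adjusted p = 2.39e-06) and the level fell by 27.2%. The libraries of miR-182 replicates 1 and 2 held the same 17989 Adipoq reads, but their counts over all genes differed by more than sampling noise (chi-square per degree of freedom 5.01). Without miR-182 replicate 1 the log2 fold change was -0.40.

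Lep (chr6:29060220-29073877, plus strand) moved the other way from Adipoq. It had 311, 382 and 350 reads in the control samples and 447, 479 and 524 in the miR-182 samples, which is 12.2, 14.6 and 13.4 CPM against 15.3, 18.2 and 18.6 CPM. The groups did not overlap, but the highest control sample and the lowest miR-182 sample were near each other. The mean rose from 13.4 ± 1.20 to 17.4 ± 1.78 CPM (SD, n = 3 each, edgeR log2 fold change 0.37, SE 0.086, adjusted p = 0.00276). The change was 1.29-fold and was not called. Of the 9 genes tested, Lep had the fewest reads and the largest standard error.

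The ratio of Lep to Adipoq reads within a sample does not depend on how libraries are scaled. There were 1.31, 1.55 and 1.48 Lep reads per 100 Adipoq reads in the control samples and 2.48, 2.66 and 2.55 in the miR-182 samples. All 3 miR-182 samples were higher, and the ratio was 1.78-fold that of the control samples (log2 difference 0.83, p = 0.1 in a two-sided exact permutation test, which cannot give less with 3 samples a group). The 2 genes differ in transcript length, so the ratio is one of reads and not of molecules.

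**Figure D2:**
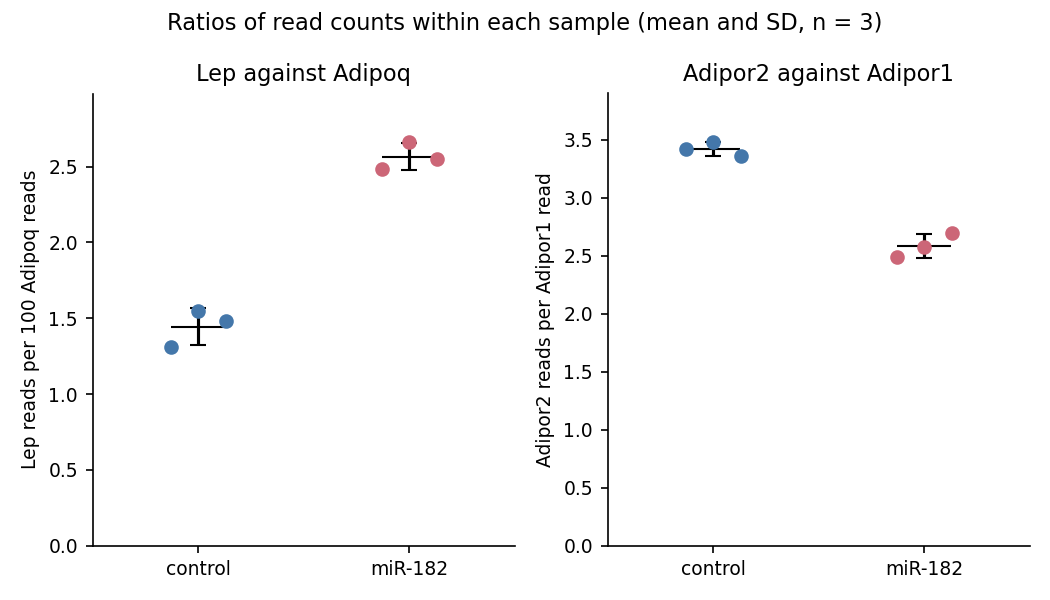
Ratios of raw read counts within each sample, Lep per 100 Adipoq reads (left) and Adipor2 per Adipor1 read (right), by group, with mean and SD (n = 3). The left ratio lies between 2.48 and 2.66 with miR-182, above all control samples, and the right between 2.48 and 2.69, below all control samples.

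Ccdc3 (chr2:5137776-5230878, plus strand) was the adipokine gene with the largest rise. It stood at 42.2, 42.7 and 39.9 CPM in the control samples and at 68.9, 67.7 and 69.9 CPM in the miR-182 samples. The samples of each group were nearly level and the groups far apart. The mean rose from 41.6 ± 1.51 to 68.8 ± 1.11 CPM (SD, n = 3 each, edgeR log2 fold change 0.73, SE 0.041, adjusted p = 6.11e-09), and Ccdc3 kept its call whichever of the 6 samples was left out. The RNA gene Gm26776 on the opposite strand covers 1845 of the 2670 exon bases of Ccdc3 (69.1%). The libraries were made strand-specific, but the strand setting of the counting is not given in the sources used here. Gm26776 is not among the genes listed, so without strand its reads could be counted as Ccdc3.

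The changes of Apln and Nampt, the genes with the sites shown above, were small. Apln (chrX:48025146-48034853, minus strand), which encodes the precursor of apelin peptides, stood at 31.3, 32.0 and 27.4 CPM in the control samples and at 25.3, 25.2 and 26.8 CPM in the miR-182 samples. Its lowest control sample lay just above its highest miR-182 sample. In edgeR the log2 fold change was -0.23 (SE 0.063, adjusted p = 0.00737), and it changed sign relative to the mean of adipocyte markers. Nampt (chr12:32819545-32853349, plus strand) stood at 200, 212 and 214 CPM in the control samples and at 223, 220 and 220 CPM in the miR-182 samples. The groups were apart by less than the spread of the control samples. Its log2 fold change was 0.08 (95% interval 0.02 to 0.15, adjusted p = 0.0359, edgeR), and the adjusted p reached 0.0558 in the fit with a replicate block and 0.163 without control replicate 1. The adjusted p of Nampt was under 0.05 in 7 of 13 alternative fits.

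The adiponectin receptors moved in opposite directions as CPM, though relative to the mean of adipocyte markers (described further on) Adipor2 was higher as well. Adipor1 (chr1:134415378-134433351, plus strand) stood at 179, 180 and 180 CPM in the control samples and at 201, 210 and 205 CPM in the miR-182 samples (edgeR: log2 fold change 0.19, SE 0.028, adjusted p = 5.3e-05). Adipor2 (chr6:119353150-119417704, minus strand) stood at 612, 626 and 605 CPM in the control samples and at 500, 542 and 551 CPM in the miR-182 samples (edgeR: log2 fold change -0.21, SE 0.035, adjusted p = 0.000246). Both changes were well short of 1.5-fold, and neither pair of groups overlapped. There were 3.42, 3.48 and 3.36 Adipor2 reads per Adipor1 read in the control samples and 2.48, 2.58 and 2.69 in the miR-182 samples. The ratio was lower in all 3 miR-182 samples (log2 difference -0.40, p = 0.1 in a two-sided exact permutation test, its lowest value).

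Lepr (chr4:101717404-101815352, plus strand) was close to absent. It had 2, 1 and 0 reads in the control samples and 1, 1 and 2 in the miR-182 samples, in all 3 and 4 reads. A limit of 3 reads in a library corresponds to 0.103 to 0.118 CPM here, and both groups lay under it, so no change could be measured at this depth. Leprot, whose product influences how much leptin receptor reaches the cell surface, was expressed at 78.3 ± 3.45 CPM in control and 60.8 ± 0.955 CPM in miR-182 samples (SD, n = 3 each), with a log2 fold change of -0.36 and no call.

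**Figure D3:**
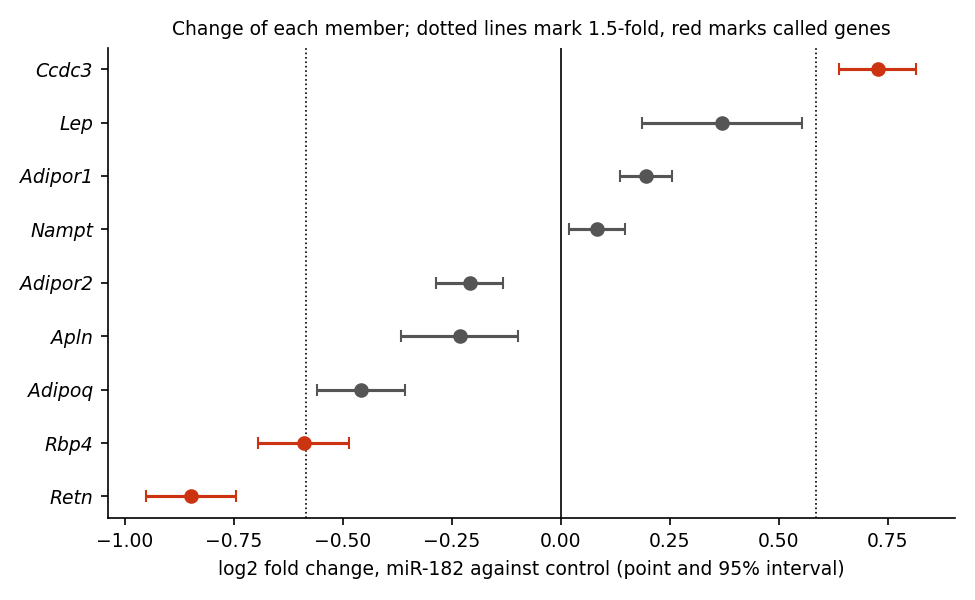
Log2 fold change of miR-182 against control (x axis) for the 9 genes tested, as points with 95% intervals from edgeR's quasi-likelihood fit; dotted lines mark 1.5-fold and red marks called genes. Values run from -0.85 (Retn) to 0.73 (Ccdc3), and the interval of Rbp4 spans the 1.5-fold line.

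Levels can be compared between genes once divided by length, here the exon bases of the GENCODE basic transcripts, which need not be those of the annotation used for counting. In the control samples Adipoq stood first at 719 ± 16.0 CPM per kb (SD, n = 3), 4.94 times the next gene, Retn. Retn (145 ± 4.99) and Adipor2 (140 ± 2.41) overlapped in their samples and could not be ordered. Rbp4, Adipor1, Nampt, Ccdc3, Apln and Lep followed, down to 4.12 ± 0.370 CPM per kb for Lep (SD, n = 3), and none of these neighbours overlapped. With miR-182, Adipoq remained first at 523 ± 43.3 CPM per kb. Retn, at 80.8 ± 6.80, then lay below Adipor2, at 121 ± 6.15, and Rbp4, at 43.8 ± 1.95, below Adipor1 (58.3 ± 1.26) and Nampt (48.8 ± 0.348). No neighbours in the order overlapped in the miR-182 samples.

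**Figure D4:**
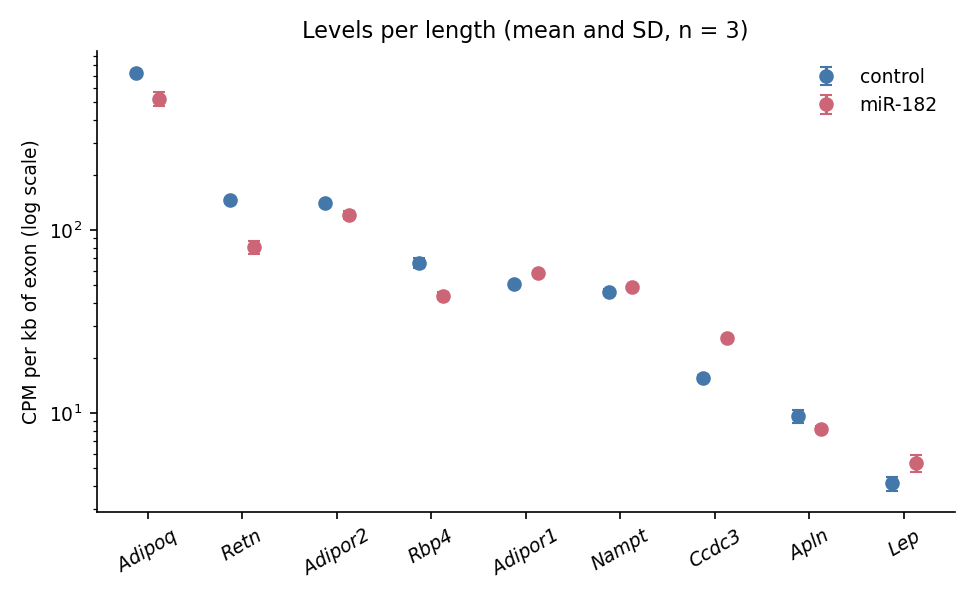
Levels in CPM per kb of exon (y axis, log scale) of 9 genes in control (blue) and miR-182 (red) samples, as means with SD (n = 3; some bars are smaller than the points). Adipoq is highest in both groups, Retn and Rbp4 drop in the order with miR-182, and Lep is lowest in both.

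Most adipocyte markers were lower with miR-182. All 14 were expressed, with a summed level of 19029 to 20112 CPM in the control samples and 12793 to 14510 CPM in the miR-182 samples. Of these, 5 were called lower and 0 higher, and by the adjusted p alone 11 were lower and 1 higher, with a median log2 fold change of -0.45. Among all genes tested 5.48% were called lower, and 23.5% were lower and 23.2% higher by the adjusted p. Car3, a carbonic anhydrase abundant in fat, fell by 1.02 on the log2 scale, and Acsl1, Pnpla2, Fabp4 and Dgat2, which activate, release, carry and esterify fatty acids, had log2 fold changes of -0.74, -0.69, -0.68 and -0.61. Cebpa, a transcription factor of adipocyte differentiation, was at -0.56, and Plin4, a lipid droplet coat protein, rose by 0.50. Lpl (-0.47), Slc2a4 (-0.43), Cidec (-0.36), Pparg (-0.31) and Cd36 (-0.13) were lower by the adjusted p alone. Plin1 (-0.06) and Lipe (-0.09) did not pass it. The mean log2 level of the 14 markers differed by -0.41 between the groups.

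Each gene was also taken relative to that marker mean in the same sample, a comparison added after the values were seen. The marker mean, which differed by -0.41 between the groups, was subtracted from every gene alike. All 9 changes were therefore shifted by the same amount, and their order could not change. Adipoq differed by -0.06 (log2, miR-182 minus control), Rbp4 by -0.18 and Retn by -0.45. Lep differed by 0.77, Ccdc3 by 1.13, Nampt by 0.49 and Adipor1 by 0.60. Apln (0.18) and Adipor2 (0.19), which were lower as CPM, were higher relative to the marker mean, which fell by more. Single markers did not all do so. Plin1 (-0.06), Lipe (-0.09) and Cd36 (-0.13) were lowered by less than either gene, and Plin4 (0.50) rose, while the other markers fell by more than both. Each of the 9 differences from the marker mean separated the groups without overlap (p = 0.1 for each in a two-sided exact permutation test, its lowest value). Whether the adipocyte markers have a part in the changes of the adipokines was not tested.

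**Figure D5:**
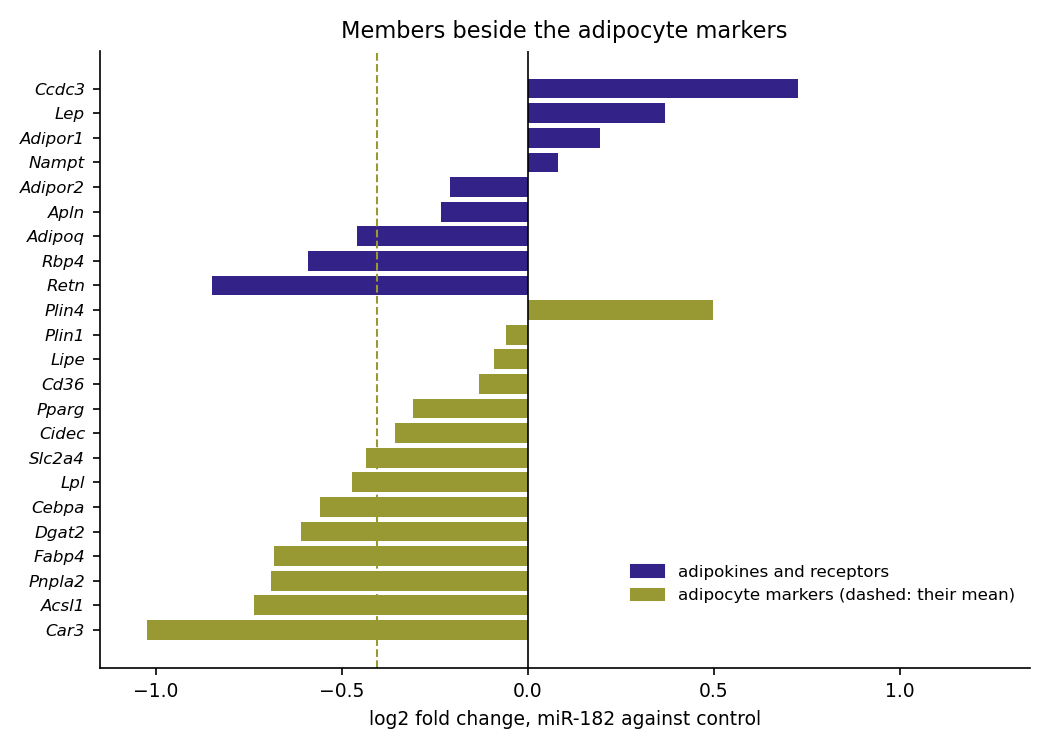
Log2 fold changes (x axis) of the 9 adipokine and receptor genes (purple) and of the 14 adipocyte markers (olive), with the mean of the markers as a dashed line at -0.41. Adipoq lies near the markers' mean, Retn beyond it, and Lep and Ccdc3 on the other side of 0.

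Other cell types were checked by their markers, whose part in the changes was not tested. Stromal and progenitor markers summed to 40571 to 42371 CPM in control and 35851 to 37059 CPM in miR-182 samples, with 3 of 11 tested called lower: Cd34 (log2 fold change -1.53), Pdgfra (-0.86) and Pi16 (-0.78). The adjusted p alone was passed by 5 more, of which Dlk1 (-0.40), Ly6a (-0.35) and Col3a1 (-0.32) were lower and Cd24a (0.35) and Thy1 (0.19) higher. Pdgfrb (0.06), Col1a1 (-0.05) and Anxa3 (0.09) did not pass it. Among all genes tested 5.48% were called lower and 46.7% passed the adjusted p. Macrophage markers were low, at 15.2 to 16.3 CPM in control and 12.96 to 16.8 CPM in miR-182 samples. Of 11, 4 could be tested, of which Lyz2 was called lower (-0.63). Cd68 (-0.24), Cd14 (-0.59) and Csf1r (0.11) did not pass the adjusted p. Endothelial markers summed to 8.93 to 10.03 and 5.47 to 6.45 CPM, with 4 of 8 tested and Cldn5 at 0 in every sample. Tek was called lower (-1.31, from 6.05 to 2.43 CPM). Cdh5 (-0.14), Vwf (-0.51) and Kdr (0.43) did not pass the adjusted p. Muscle markers, mostly the smooth muscle actin Acta2 (0.29), summed to 2373 to 2507 and 2929 to 3149 CPM, with 5 of 9 tested. Acta1 was called higher (0.73), Cnn1 was at 0.20, and Ckm and Myh4 had 0 reads. Myh11 (-0.02) and Tnnt3 (-0.14) did not pass the adjusted p. The erythroid hemoglobin genes were at 0 in every sample, and the summed level of the list was 0.651 to 0.746 and 0.137 to 0.708 CPM. Of 7 beige and brown markers tested, 1 was called lower, Tmem26 (-1.48). It stood at only 1.34 CPM in control and 0.477 CPM in miR-182 samples. Cox8b (-0.47), Cox7a1 (-0.46) and Prdm16 (-0.21) were lower by the adjusted p alone. Ppargc1a (-0.08), Cidea (0.09) and Elovl3 (-0.21) did not pass it. The summed level of the list was 61.5 to 66.1 CPM in control and 49.0 to 51.5 CPM in miR-182 samples. Ucp1 had 0 to 6 reads per sample.

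Of 18 genes of adiponectin signalling, all tested, 0 were called, where 7.45% of all genes tested were. The adjusted p was passed by 8, 4 higher and 4 lower, where 46.7% of all genes tested passed it, and the median log2 fold change was -0.01. The largest of these were Acer2, a ceramidase, at 0.58 and Paqr8, a membrane receptor of the same family as the adiponectin receptors, at 0.54. Cdh13, which encodes T-cadherin, a binding partner of adiponectin, was at 3.38 CPM in control and 3.40 CPM in miR-182 samples. Of 10 genes of adiponectin assembly and secretion, 0 were called, and 2 were higher and 4 lower by the adjusted p (median log2 fold change -0.07), led by the transcription factors Cebpa and Pparg (-0.31).

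Of 15 genes of leptin signalling, 1 was called, Ptpn1, a phosphatase that dampens signalling below the leptin and insulin receptors, which fell from 60.2 ± 1.81 to 39.1 ± 2.23 CPM (SD, n = 3 each; log2 fold change -0.62, adjusted p = 1.54e-07, edgeR). By the adjusted p alone, 6 were higher and 5 lower, and the median log2 fold change was 0.08. Of all genes tested, 7.45% were called, and 23.2% were higher and 23.5% lower by the adjusted p. Leprotl1, a relative of Leprot, was at 0.52 and the adaptor Grb2 at -0.39.

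Among resistin receptors and relatives, 4 of 7 genes could be tested, with a median log2 fold change of -0.13. 1 was called lower, as were 5.48% of all genes tested: Dcn, which encodes the proteoglycan decorin (-0.64). Cap1, a reported resistin receptor, was at 0.06, and Tlr4 at -0.20. Retnlb and Retnlg had 0 reads in every sample and Retnla at most 4. Of 9 genes of retinol carriage and uptake, 3 could be tested, with a median log2 fold change of -0.56. Crabp2, which binds retinoic acid inside cells, was at -0.56 (adjusted p = 0.0447, edgeR) and was not called. It stood at only 1.87 CPM in control and 1.26 CPM in miR-182 samples, and the groups overlapped. Crabp1 (0.34) did not pass the adjusted p. Stra6, which encodes the RBP4 receptor, had 1 to 7 reads per sample.

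The list for NAD salvage also held genes of other routes to NAD, of its use and of transport. Of its 18 genes, 17 were found and 15 tested. 2 were called lower, Qprt (-1.86), which makes a precursor of NAD by another route and stood at only 0.967 and 0.263 CPM, and Slc12a8 (-0.59), a transporter at 1.46 and 0.968 CPM. By the adjusted p alone 7 were lower and 0 higher (median log2 fold change -0.12), where 23.5% and 23.2% of all genes tested were. Among the 7 were Cd38 (-0.52), an enzyme that consumes NAD, and Nmnat3 (-0.31). Nmnat1 (0.09) and Nmnat2 (-0.12) did not pass the adjusted p. In either direction 46.7% of all genes tested passed it, and 5.48% were called lower. In the apelin list, the receptor gene Aplnr had 1 to 5 reads per sample, and both genes tested, Mme (0.25) and Furin (0.10), passed the adjusted p without a call.

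Among 22 other secreted adipokines, 21 were found and 16 tested. By the adjusted p alone 5 were higher and 8 lower, where 23.2% and 23.5% of all genes tested were, and the median log2 fold change was -0.11. Gdf15, a stress-responsive hormone, was at 0.46 and the acute-phase protein gene Saa3 at -0.52. Cfd, which encodes adipsin, and Hp, which encodes haptoglobin, were each at -0.42. Cfd and Hp were picked after their values were seen.

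The receptors for other adipokines that could be tested were lower. Of 8 genes 6 could be tested, and all 6 passed the adjusted p in the lower direction, with a median log2 fold change of -0.32. Of all genes tested 23.5% did. The list was chosen with earlier results of these data known, so this share does not test it. Cmklr1, which encodes a chemerin receptor, fell from 13.4 ± 0.318 to 5.38 ± 0.403 CPM (SD, n = 3 each; log2 fold change -1.31, adjusted p = 1.59e-08, edgeR). Il6ra, which encodes the receptor subunit that binds interleukin 6, fell from 15.0 ± 1.25 to 8.01 ± 0.460 CPM (SD, n = 3 each; log2 fold change -0.90, adjusted p = 7.24e-07, edgeR). Tnfrsf1b (-0.36), Il6st (-0.27), Tnfrsf1a (-0.23) and Lrp1 (-0.16) were not called. The remaining pair of chemerin receptor genes, Gpr1 and Ccrl2, had at most 5 reads in a sample. Rarres2, which encodes chemerin itself, was at -0.29 (adjusted p = 0.00197, edgeR).

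Likeness of profile was measured as the distance between the log2 CPM of 2 genes over the 6 samples, each gene centred on its own mean, where 0 would be an identical profile. The genes nearest to Retn were Pcx, Mfap2 and Glul, at distances of 0.0593, 0.0734 and 0.101, against a median of 1.09 over all genes tested. Those nearest to Rbp4 were Dhdh, Dab2 and Brp44, at 0.0453, 0.053 and 0.0684 (median 0.787). Those nearest to Ccdc3 were Tmem9b, Slc7a3 and Fads3, at 0.0746, 0.078 and 0.101 (median 0.935). With 6 samples in 2 groups, such distances mostly reflect the difference between the groups.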

How the data were processed

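The labels describe poly(A)-selected, strand-specific TruSeq libraries, and the submitters' processing notes name bcl2fastq, TopHat2 and HTSeq and the build mm9, with the versions, annotation and strand setting not given in the sources used here. The deposited values are raw counts by gene symbol, with 1 list for each sample and no normalization. The 5 tally lines that close each list were left out. Relative to the reads on genes, outside genes and ambiguous together, reads outside genes made up 12.7% to 13.0% and ambiguous reads 0.652% to 0.667%. A further 19363264 to 21673840 alignments per sample were not unique and were not counted, which lowers the counts of genes that have close copies.

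Counts were tested in R 4.3.3 with edgeR 4.0.16 (TMM factors, glmQLFit, glmQLFTest, two-sided, after filterByExpr at its minimum of 10 counts) and Benjamini-Hochberg adjustment over 13117 genes, with the 2 groups and no block. Files give no coordinates. Positions, exons and 3′-UTRs are those of GENCODE M21 on GRCm38 and were not converted from mm9; all 10 genes matched by symbol, as did 12961 of the genes tested. Alternatives were DESeq2 1.42.0, limma-voom (limma 3.58.1), other scaling factors, filters and fold cutoffs, the replicate block, and leaving out each sample. Exact permutation tests used scipy 1.17.1. The fit was first checked on simulated data.

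The members and lists were chosen with earlier results of these data known. All 10 members are named. From each list, every called gene is named, apart from 2 that are not reported here, along with the 2 genes of largest change that passed the adjusted p only, and for each called member the 3 genes of nearest profile. List symbols were matched through RefSeq synonyms where needed. Nmrk1 and Asip were not matched.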

Additional observations from a re-analysis of the deposited data

How the results depend on the processing

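The log2 fold changes of the 9 genes kept their direction under 14 alternatives. These were the ones listed in the methods and edgeR's glmTreat, with the 2-fold cutoff left out of the count. In 121 of the 126 combinations of gene and alternative the genes also kept their side of the call. The 6 genes not called counted as kept by staying uncalled, whatever their adjusted p, so losses of it as for Nampt do not show here. The other 5 combinations concern Rbp4. It lost its call in DESeq2, in the 3 fits named in the text and when edgeR's glmTreat tested against a 1.5-fold change. The number of members called lower was therefore 1 in DESeq2 and in glmTreat, and between 1 and 2 in the 6 fits that left out 1 sample. With a 2-fold cutoff 0 members were called higher and 0 lower, so Retn and Ccdc3 lost their calls as well, and 280 genes were called in all. With glmTreat 298 of all genes were called, because the test asks for more than the cutoff does. The numbers shared by control and miR-182 samples did not pair them: deviations from the group means correlated at -0.259, -0.0694 and -0.137 for replicates 1 to 3. A fit with the replicate block called 925 genes against 977, 921 of them shared, and the calls of the members were 1 higher and 2 lower as without it, while the adjusted p of Nampt passed the threshold to 0.0558. As paired differences, the log2 ratios of Lep to Adipoq (0.83) and of Adipor2 to Adipor1 (-0.40) had an exact sign-flip permutation p of 0.25, the smallest for 3 pairs. Leaving out 1 sample gave 0.76 to 0.88 for the first ratio and -0.43 to -0.38 for the second. Relative to the mean of the adipocyte markers, chosen after seeing the data, the changes of Apln and Adipor2 turned to 0.18 and 0.19. Depth limits Lepr and the other genes with too few reads to be tested, for which no change could be measured.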
